A study of Rattus norvegicus with 9 samples.

Results

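Sphingosine-1-phosphate (S1P) is a signaling lipid, and 9 genes of its receptors, enzymes and exporter were followed in cultured neural stem cells (NSCs): the receptor genes S1pr1, S1pr2, S1pr3 and S1pr5, the sphingosine kinase genes Sphk1 and Sphk2, the lyase gene Sgpl1, the phosphatase gene Sgpp1 and the transporter gene Spns2. They were taken by symbol from a table of 23953 genes, and all 9 were among the 15458 genes that passed the filter on low counts. The family was selected on the measured difference of S1pr3 between NSCs given Wnt5a-modified exosomes and the other groups, and the remaining members were added by function. The values of S1pr3 are therefore a description, no p is given for it, and where it is counted among genes that pass a threshold the count repeats the reason for the choice.

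NSCs from rat spinal cords, taken from newborn animals according to the study, were grown in differentiation medium in all groups. The Con group received the medium alone. The Exo group also received exosomes, small membrane vesicles released by cells, from rat bone marrow mesenchymal stem cells (BMSCs) that carried an empty lentiviral vector. The pLV-Exo-Wnt5a group received exosomes of BMSCs in which a lentivirus overexpressed rat Wnt5a, a secreted Wnt ligand, so that the NSCs themselves carried no transgene. Each group had 3 RNA-seq libraries, and the labels give the same batch for all 9. Nothing in the labels says that the libraries of a group came from separate cultures, so the tests measure the spread between these samples, which may be technical.

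S1P is made inside cells when a sphingosine kinase phosphorylates sphingosine, a breakdown product of ceramide. It leaves the cell through transporters such as Spns2 and acts on G protein-coupled receptors, S1P1 to S1P5, which differ in the G proteins they use. S1P phosphatases turn it back into sphingosine, and the lyase Sgpl1 cleaves it irreversibly. In the nervous system these receptors are known from astrocytes, oligodendrocytes, neurons and the vasculature, and they are the targets of fingolimod-type drugs used in multiple sclerosis.

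Total counts per library lay between 32765138 and 40427647, so that a count of 0 allows a level of up to 3 counts, or 0.0742 to 0.0916 in counts scaled to a fixed library size (CPM). This limit covers counting error only. Levels are given as CPM normalized by TMM over the 9 libraries, as mean ± SD with n = 3, and are compared between libraries of the same gene only, because gene lengths were not at hand. Con replicate 1 stood apart from the other Con libraries, with a chi-square of 34.9 and 48.4 per degree of freedom against them, compared with 7.33 between Con replicates 2 and 3. All 7 NSC markers (Nes and Sox2 among them) had a mean above 1 CPM. Only 6 of 18 Hox genes of the spinal cord were in the table, none with more than 3 counts in any library, so the labelled tissue was not reflected in these position genes.

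S1pr3, whose receptor couples to Gi, Gq and G12/13 proteins and is known from astrocytes and vascular cells, was highest in the pLV-Exo-Wnt5a group and lowest in the Exo group. In the Con group S1pr3 (NCBI gene number 13610) was measured at 14.6, 10.9 and 11.9 CPM in replicates 1, 2 and 3. In the Exo group it was measured at 8.04, 7.70 and 8.97 CPM. With Wnt5a-modified exosomes it reached 26.1, 23.8 and 32.9 CPM. The 3 groups did not overlap, and the lowest library of the pLV-Exo-Wnt5a group lay well above the highest Con library. Over all genes, pLV-Exo-Wnt5a lay wholly above Exo for 7.5% and wholly above Con for 7.67%, and Exo wholly below Con for 12.4%. S1pr3 was chosen for its difference, so nothing is read from this separation. These levels rested on 311 to 1358 counts per library. The group levels were 12.5 ± 1.93 CPM in Con, 8.23 ± 0.657 CPM in Exo and 27.6 ± 4.73 CPM in pLV-Exo-Wnt5a.

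**Figure D1:**
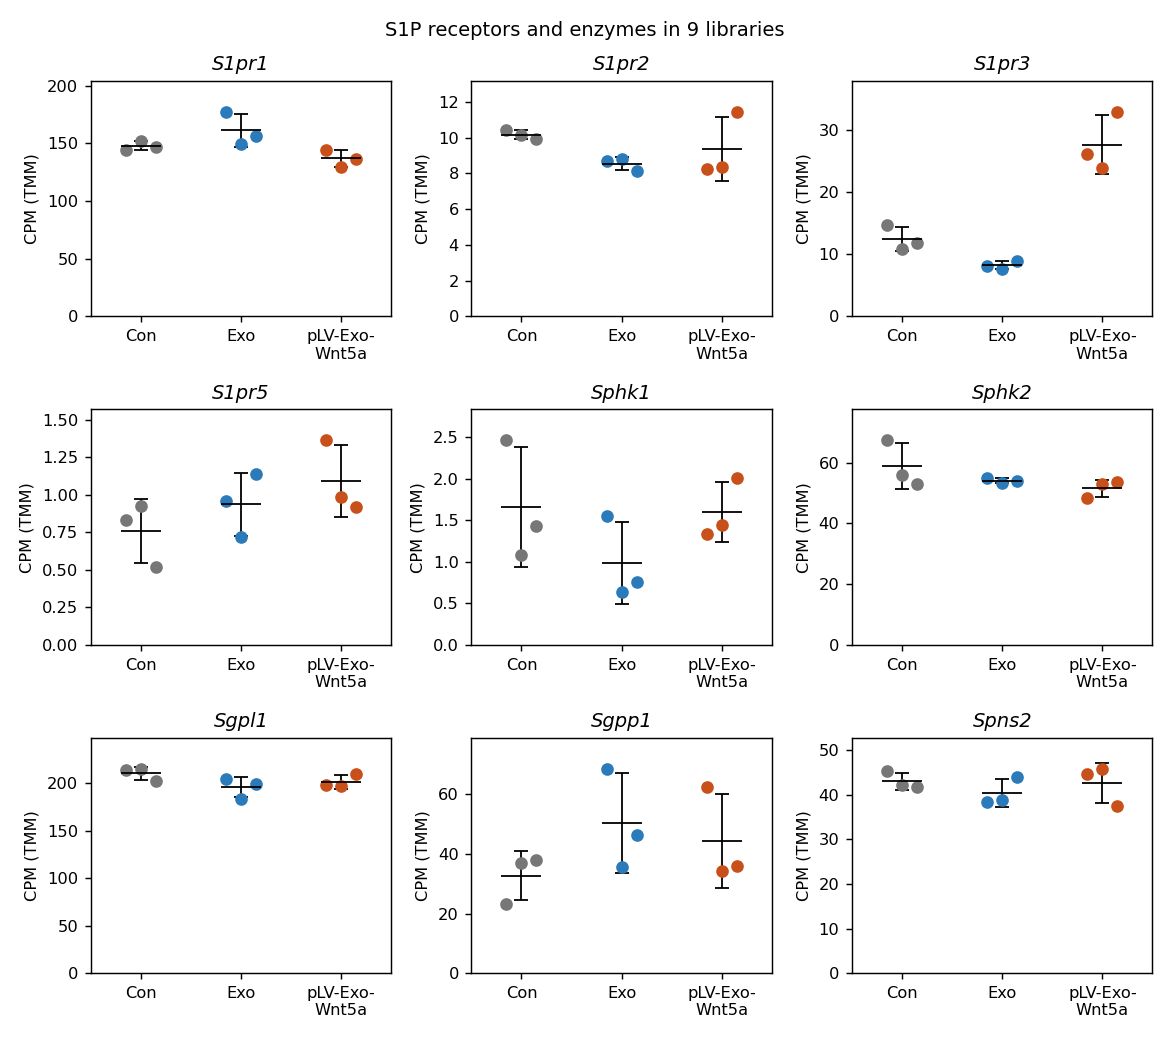
CPM normalized by TMM for each of the 9 genes, by group, with a point for each library and bars for the mean ± SD (n = 3). The 3 groups of S1pr3, the gene by which the family was chosen, are separate, with the pLV-Exo-Wnt5a libraries between 23.8 and 32.9 CPM. At least 2 groups overlap for each of the other genes.

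The log2 fold change (log2FC) of S1pr3 was 1.76 with a standard error (SE) of 0.14 between pLV-Exo-Wnt5a and Exo, a fold change of 3.38. It was 1.14 (SE 0.16) between pLV-Exo-Wnt5a and Con, a fold change of 2.20, and -0.61 (SE 0.16) between Exo and Con. The size of the last value leaned on Con replicate 1, without which it was -0.47. When each library was left out in turn, the log2FC between pLV-Exo-Wnt5a and Exo stayed between 1.60 and 1.85, and that between pLV-Exo-Wnt5a and Con between 0.99 and 1.28.

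Differentially expressed genes (DEGs) had an adjusted p (Q) under 0.05 and differed by a fold of more than 2, or less than 0.5. Of the 9 genes, 0 were DEGs between Exo and Con, where 0.00664% of the 15070 genes tested were. Between pLV-Exo-Wnt5a and Exo the count was 1 (0.159% of 15132 genes tested), and between pLV-Exo-Wnt5a and Con it was 1 (0.0663% of 15089). Both are S1pr3 itself, by which the family was chosen, so nothing is read from these counts or from the shares beside them.

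Promoter sequences are shown for S1pr3, the receptor gene with the largest difference, and for S1pr1, whose log2FC had the opposite sign to that of S1pr3 in each comparison. Each is the 250 bases before the annotated start of the rat gene in RefSeq (GRCr8), read 5′ to 3′ on the gene's strand. Both genes lie on the minus strand, S1pr3 at chr17:13946014-13946263 and S1pr1 at chr2:206314071-206314320, for these windows. The count table uses mouse symbols, so genes and promoters were joined by symbol alone. Capitals mark GC boxes (GGGCGG on either strand).
S1pr3: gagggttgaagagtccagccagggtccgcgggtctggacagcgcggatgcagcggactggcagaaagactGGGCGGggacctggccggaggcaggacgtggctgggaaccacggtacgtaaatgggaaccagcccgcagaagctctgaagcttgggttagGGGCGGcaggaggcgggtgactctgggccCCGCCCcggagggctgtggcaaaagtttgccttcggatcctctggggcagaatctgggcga
S1pr1: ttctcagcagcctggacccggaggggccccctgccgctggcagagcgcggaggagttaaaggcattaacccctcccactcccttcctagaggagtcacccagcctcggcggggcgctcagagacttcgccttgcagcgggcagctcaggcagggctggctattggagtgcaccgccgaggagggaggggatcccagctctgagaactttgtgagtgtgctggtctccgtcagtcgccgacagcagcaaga
The S1pr3 window held 3 GC boxes and the S1pr1 window 0. A GC box was present in 30.5% of 33469 rat promoter windows of this length, and in at least 1 window of 6 of the 8 members that could be matched. No match to an NF-kB motif (GGGA and TTCC with any 2 bases between them), TTCNNNGAA (STAT) or TGANTCA (AP-1) was found on either strand of the S1pr3 and S1pr1 windows. Among all windows 1.08%, 7.67% and 6.34% held these motifs, and among the members TTCNNNGAA was found for Sphk1 and Sgpp1. No matches overlapped in the members' windows. A match describes these letters only and says nothing about binding.

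S1pr1, the Gi-coupled receptor that is abundant on astrocytes and endothelium, was slightly lower with Wnt5a-modified exosomes than with the empty-vector ones, by an amount that did not pass the test across all genes. S1pr1 (gene number 13609) was measured at 144, 152 and 147 CPM in the Con libraries, 177, 149 and 157 CPM in the Exo libraries, and 145, 129.8 and 136 CPM in the pLV-Exo-Wnt5a libraries. The highest pLV-Exo-Wnt5a library lay below the lowest Exo library, while the Con libraries overlapped both groups. Its log2FC between pLV-Exo-Wnt5a and Exo was -0.22 (SE 0.07, Q = 0.229 from edgeR), with a 95% interval from -0.38 to -0.07 that is not adjusted for the number of genes. This value ranged from -0.28 to -0.16 when each library was left out. The group levels were 148 ± 3.96 CPM in Con, 161 ± 14.5 CPM in Exo and 137 ± 7.36 CPM in pLV-Exo-Wnt5a. Exo and Con differed by 0.11 (SE 0.08, Q = 0.477), and pLV-Exo-Wnt5a and Con by -0.12 (SE 0.08, Q = 0.691). With a library left out, the former ranged from 0.049 (without Exo replicate 1) to 0.16. The latter ranged from -0.16 to -0.074 (without pLV-Exo-Wnt5a replicate 2).

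Across the 9 libraries, log2 levels of S1pr1 and S1pr3 had a Pearson r of -0.77. The points share their libraries and groups, and both genes differ between the same 2 groups, so this value describes the libraries only. Of all counts on the 4 receptor genes, S1pr3 made up 7.29% ± 1.19 in Con, 4.62% ± 0.502 in Exo and 15.7% ± 2.07 in pLV-Exo-Wnt5a (SD, n = 3). The share of S1pr1 was 86.3% ± 1.36, 90.1% ± 0.768 and 78.3% ± 2.82 in the same order. A longer transcript draws more counts, so only the change of a share between groups can be read here, and it uses the S1pr3 values by which the family was chosen.

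**Figure D2:**
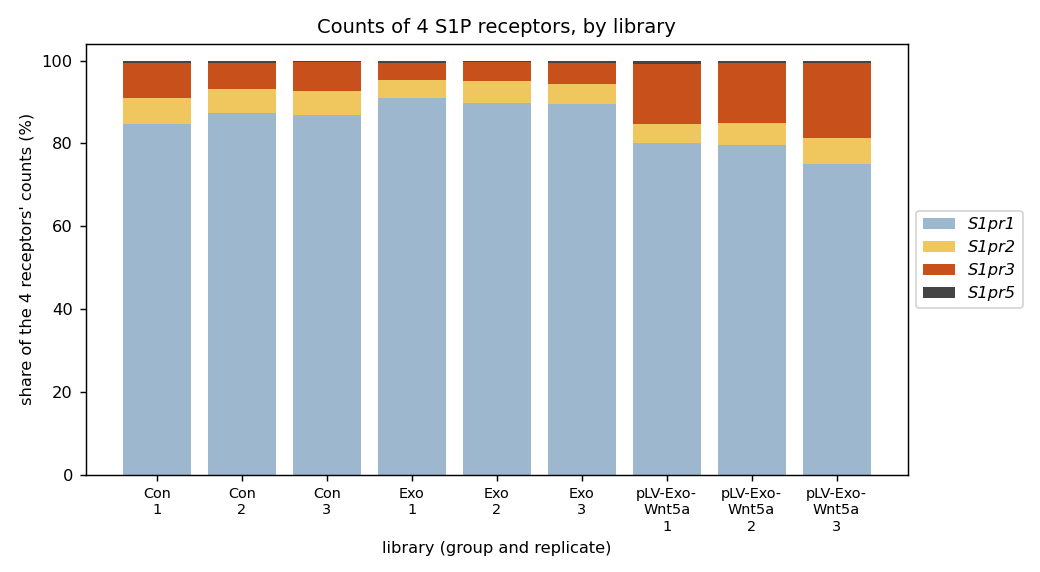
Share of the counts of S1pr1, S1pr2, S1pr3 and S1pr5 taken by each gene (y axis, %) in each of the 9 libraries (x axis). The S1pr3 segment spans 14.5% to 18.1% in the pLV-Exo-Wnt5a libraries, 6.27% to 8.59% in Con and 4.12% to 5.13% in Exo.

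S1pr2, whose receptor couples mainly to G12/13, was lower in every Exo library than in every Con library. S1pr2 (gene number 14739) was measured at 10.4, 10.2 and 9.92 CPM in Con, at 8.68, 8.84 and 8.13 CPM in Exo, and at 8.28, 8.37 and 11.5 CPM in pLV-Exo-Wnt5a. The log2FC between Exo and Con was -0.26 (SE 0.13, 95% interval -0.56 to 0.04, Q = 0.37), which does not pass the test. Groups that do not overlap, with the first lower, were found for 12.4% of all genes in that comparison, and for 1 other member, S1pr3, the gene for which the family was chosen and so no independent second case. In the pLV-Exo-Wnt5a group replicate 3 was the highest of all 9 libraries and replicates 1 and 2 were near the Exo libraries. The log2FC of S1pr2 was 0.15 (SE 0.15, Q = 0.776) between pLV-Exo-Wnt5a and Exo, and -0.03 without pLV-Exo-Wnt5a replicate 3. It was -0.13 (SE 0.17, Q = 0.847) between pLV-Exo-Wnt5a and Con. That value ranged from -0.29 (without pLV-Exo-Wnt5a replicate 3) to -0.044 (without pLV-Exo-Wnt5a replicate 2) when each library was left out.

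S1pr5, the receptor gene known from oligodendrocytes, was the least counted of the receptors, with 17 to 54 counts per library. S1pr5 (gene number 94226) was measured at 0.830, 0.924 and 0.517 CPM in Con, at 0.956, 0.718 and 1.14 CPM in Exo, and at 1.36, 0.984 and 0.920 CPM in pLV-Exo-Wnt5a. All 3 groups overlapped. The log2FC between pLV-Exo-Wnt5a and Con was 0.51 (SE 0.38, 95% interval -0.33 to 1.34, Q = 0.72), an interval that leaves room for differences of either sign. It was 0.29 (SE 0.38, Q = 0.712) between Exo and Con and 0.23 (SE 0.34, Q = 0.852) between pLV-Exo-Wnt5a and Exo. With a library left out these values stayed above 0 but moved widely. The range was 0.079 (without Con replicate 3) to 0.45 between Exo and Con, 0.040 (without pLV-Exo-Wnt5a replicate 1) to 0.40 between pLV-Exo-Wnt5a and Exo, and 0.30 (without Con replicate 3) to 0.67 between pLV-Exo-Wnt5a and Con. S1pr4, the receptor gene of lymphocytes, had at most 1 count in any library and was not tested.

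**Figure D3:**
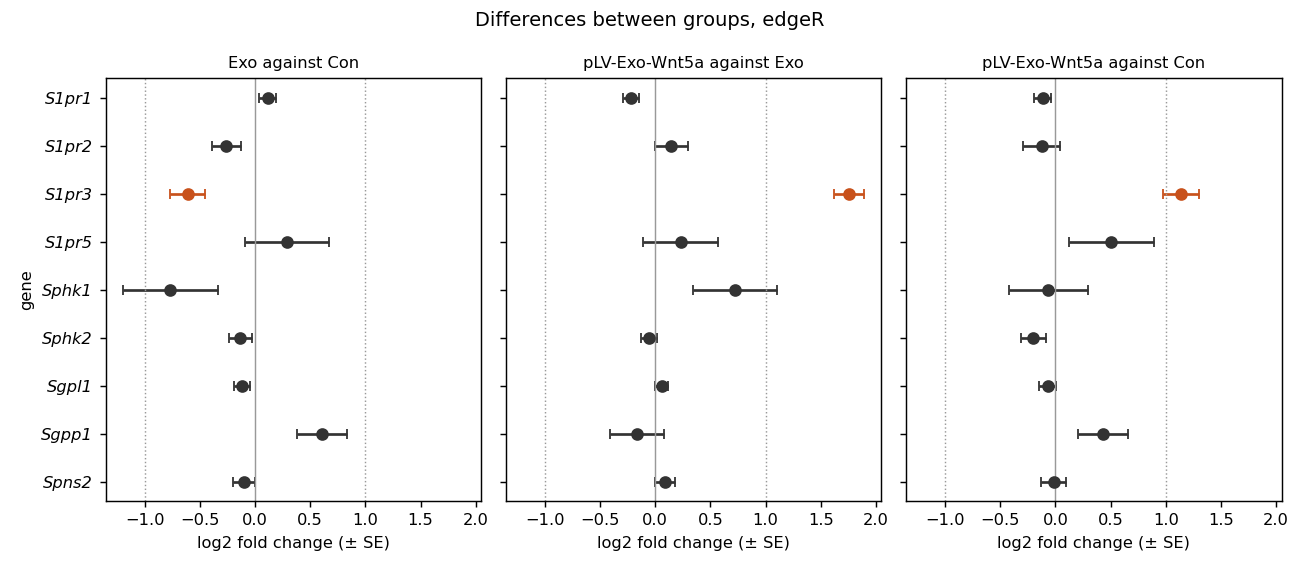
The log2FC of each of the 9 genes (x axis) in the 3 comparisons, with bars for ± SE and dotted lines at a fold change of 2 in each direction. S1pr3, in orange, lies at 1.76 and 1.14 in the comparisons of pLV-Exo-Wnt5a with Exo and Con, and the point of no other gene reaches a dotted line.

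Of the 2 kinase genes, Sphk2, whose product is found in the nucleus and mitochondria, varied little, and Sphk1, whose product is mostly cytosolic and inducible, had few counts and a wide spread. Sphk1 (gene number 20698) was measured at 2.46, 1.08 and 1.43 CPM in Con, at 1.55, 0.643 and 0.758 CPM in Exo, and at 1.34, 1.45 and 2.01 CPM in pLV-Exo-Wnt5a. A single library stood high in Con and in Exo, replicate 1 in each, and all groups overlapped. The log2FC of Sphk1 was -0.77 (SE 0.43, 95% interval -1.72 to 0.19, Q = 0.399) between Exo and Con. Leaving out a library moved it from -1.24 (without Exo replicate 1) to -0.36 (without Con replicate 1). Between pLV-Exo-Wnt5a and Exo it was 0.72 (SE 0.38, 95% interval -0.12 to 1.56, Q = 0.509), and 1.20 without Exo replicate 1. Between pLV-Exo-Wnt5a and Con it was -0.06 (SE 0.36, 95% interval -0.84 to 0.71, Q = 0.969). None of these passes the test, and each interval leaves room for sizeable differences.

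Sphk1 counts, 26 to 95 per library, were a small share of the counts on both kinase genes. The share was lowest in Exo replicate 2, at 1.19% (exact 95% binomial interval 0.781% to 1.74%), and highest in pLV-Exo-Wnt5a replicate 3, at 3.62% (2.90% to 4.47%). Con replicate 1 was close to the latter, at 3.53% (2.86% to 4.30%). These intervals cover counting error only. Sphk2 (gene number 56632) was measured at 67.4, 56.0 and 53.1 CPM in Con, at 55.1, 53.3 and 53.9 CPM in Exo, and at 48.2, 52.9 and 53.5 CPM in pLV-Exo-Wnt5a. Con replicate 1 was the highest library, and the other 8 lay within a narrow band. The log2FC of Sphk2 was -0.13 (SE 0.11, Q = 0.533) between Exo and Con, and -0.02 without Con replicate 1. It was -0.06 (SE 0.07, Q = 0.813) between pLV-Exo-Wnt5a and Exo, with a 95% interval from -0.21 to 0.10. Between pLV-Exo-Wnt5a and Con it was -0.20 (SE 0.11, Q = 0.657), and -0.08 without Con replicate 1.

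Sgpl1, the lyase gene through which S1P leaves the sphingolipid pool, was the steadiest member. Sgpl1 (gene number 20397) was measured at 213, 215 and 202 CPM in Con, at 204, 184 and 199 CPM in Exo, and at 198, 196 and 209.7 CPM in pLV-Exo-Wnt5a. Its coefficient of variation within groups was 4.17%, and 4.81% of all genes had a lower value. The log2FC of Sgpl1 was -0.12 (SE 0.07, 95% interval -0.28 to 0.05, Q = 0.444) between Exo and Con. Between pLV-Exo-Wnt5a and Exo it was 0.06 (SE 0.06, 95% interval -0.07 to 0.19, Q = 0.776). Between pLV-Exo-Wnt5a and Con it was -0.07 (SE 0.08, 95% interval -0.24 to 0.10, Q = 0.817). These intervals leave room for small differences only.

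Sgpp1, the phosphatase gene of the endoplasmic reticulum that returns S1P to sphingosine, varied widely between the replicates of each group. Sgpp1 (gene number 81535) was measured at 23.4, 36.9 and 38.1 CPM in Con, at 68.6, 35.7 and 46.5 CPM in Exo, and at 62.6, 34.3 and 36.1 CPM in pLV-Exo-Wnt5a. Replicate 1 was the lowest library in Con and the highest in Exo and in pLV-Exo-Wnt5a, and all groups overlapped. The coefficient of variation within groups was 31.7%, with 83.2% of genes below it. The log2FC between Exo and Con was 0.61 (SE 0.23, 95% interval 0.09 to 1.12, Q = 0.293). It was 0.33 without Exo replicate 1 and 0.41 without Con replicate 1. It was -0.17 (SE 0.24, Q = 0.85) between pLV-Exo-Wnt5a and Exo, and 0.43 (SE 0.23, Q = 0.642) between pLV-Exo-Wnt5a and Con, the latter 0.10 without pLV-Exo-Wnt5a replicate 1.

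After the spread of Sgpp1 had been seen, it was set beside that of 39 other genes of sphingolipid metabolism. Of these, Sptssa, a small subunit of serine palmitoyltransferase, followed Sgpp1 most closely over the 9 libraries, with a Pearson r of 0.977. Sptssa was measured at 28.7, 38.3 and 49.1 CPM in Con, at 85.7, 44.2 and 54.6 CPM in Exo, and at 67.9, 39.98 and 44.0 CPM in pLV-Exo-Wnt5a. As for Sgpp1, replicate 1 was the lowest Con library and the highest library of the other groups. The alkaline ceramidase gene Acer3 (r = 0.894), the lipid phosphate phosphatase gene Plpp3 (0.851) and Ormdl1 (0.825), a brake on serine palmitoyltransferase, were the others above 0.8, and Ormdl3 had the lowest r (-0.846). Thus 4 of the 39 genes (10.3%) were above 0.8, where 5.03% of all 15457 other genes were. An r as high as that of Sptssa was reached by 0.0259% of those genes, Sptssa included. Sptssa was picked as the highest of the list after its values were seen, so these shares are a description with no test. These points share their libraries, depth and groups.

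Spns2, the exporter gene of S1P, was at like levels in the 3 groups. Spns2 (gene number 216892) was measured at 45.1, 42.1 and 41.6 CPM in Con, at 38.3, 38.9 and 43.9 CPM in Exo, and at 44.7, 45.8 and 37.5 CPM in pLV-Exo-Wnt5a. Each group held libraries on both sides of 42 CPM, so no order of the groups can be read. The log2FC of Spns2 was -0.10 (SE 0.10, 95% interval -0.32 to 0.12, Q = 0.623) between Exo and Con. Between pLV-Exo-Wnt5a and Exo it was 0.09 (SE 0.09, 95% interval -0.11 to 0.30, Q = 0.773). Between pLV-Exo-Wnt5a and Con it was -0.02 (SE 0.11, 95% interval -0.26 to 0.22, Q = 0.972).

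Among the 8 members other than S1pr3, 0 were DEGs in each comparison by edgeR. By DESeq2 it was 0 of the 6 with an adjusted p between Exo and Con, where it gave none to S1pr5 and Sphk1, and 0 of 8 in the other comparisons. With an unadjusted p under 0.05 there was 1 between Exo and Con (Sgpp1), against 14.9% of all genes, 1 between pLV-Exo-Wnt5a and Exo (S1pr1), against 12%, and 0 between pLV-Exo-Wnt5a and Con, against 8.35%. DESeq2 gave 1, 1 and 0, against 9.81%, 8.21% and 5.59%. A single gene is 12.5% of 8, so nothing is read from these counts. At looser thresholds (an unadjusted p under 0.05 and a log2FC above 0.58 in size) 1 of the 8, Sgpp1, passed between Exo and Con, against 4.47% of all genes, and 0 in the other comparisons, against 3.49% and 2.16%. Groups that did not overlap were found with the first group lower for 1, 1 and 0 of the 8 (S1pr2, then S1pr1), against 12.4%, 8.9% and 9.41% of all genes. With the first group higher they were found for 0 in each, against 10.9%, 7.5% and 7.67%. The median log2FC of the 8 genes was -0.11, 0.07 and -0.07 in the comparisons of Exo with Con, pLV-Exo-Wnt5a with Exo and pLV-Exo-Wnt5a with Con, beside a median of 0.00 over all genes in each. The comparisons share libraries, so they are not independent of each other.

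The other genes of sphingolipid metabolism were described by 4 lists, of which 43 of 45 genes were in the table. Of the 39, 38 and 39 genes tested between Exo and Con, pLV-Exo-Wnt5a and Exo, and pLV-Exo-Wnt5a and Con, 0 were DEGs in each by edgeR. With an unadjusted p under 0.05 there were 9, 6 and 2, where 14.9%, 12% and 8.35% of all genes were. DESeq2, which filters in another way, called 0 of the 32, 39 and 39 genes to which it gave an adjusted p, and had 7, 5 and 3 of 43 at an unadjusted p under 0.05, where 9.81%, 8.21% and 5.59% of all genes were. The log2FC was above 0 for 22, 17 and 22 genes and its median was 0.07, -0.02 and 0.03, beside 0.00 over all genes in each. The gene of glucosylceramide synthase, Ugcg, which draws ceramide into glycosphingolipids, had the smallest p of its list in both comparisons with Con. It was measured at 17.2 ± 2.71 CPM in Con, 26.9 ± 1.78 CPM in Exo and 25.2 ± 0.332 CPM in pLV-Exo-Wnt5a, and each exosome library was above each Con library. Its log2FC was 0.64 (SE 0.13, Q = 0.265) between Exo and Con and 0.55 (SE 0.13, Q = 0.31) between pLV-Exo-Wnt5a and Con. DESeq2 gave it an adjusted p under 0.05 in both, without a fold change above 2.

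**Figure D4:**
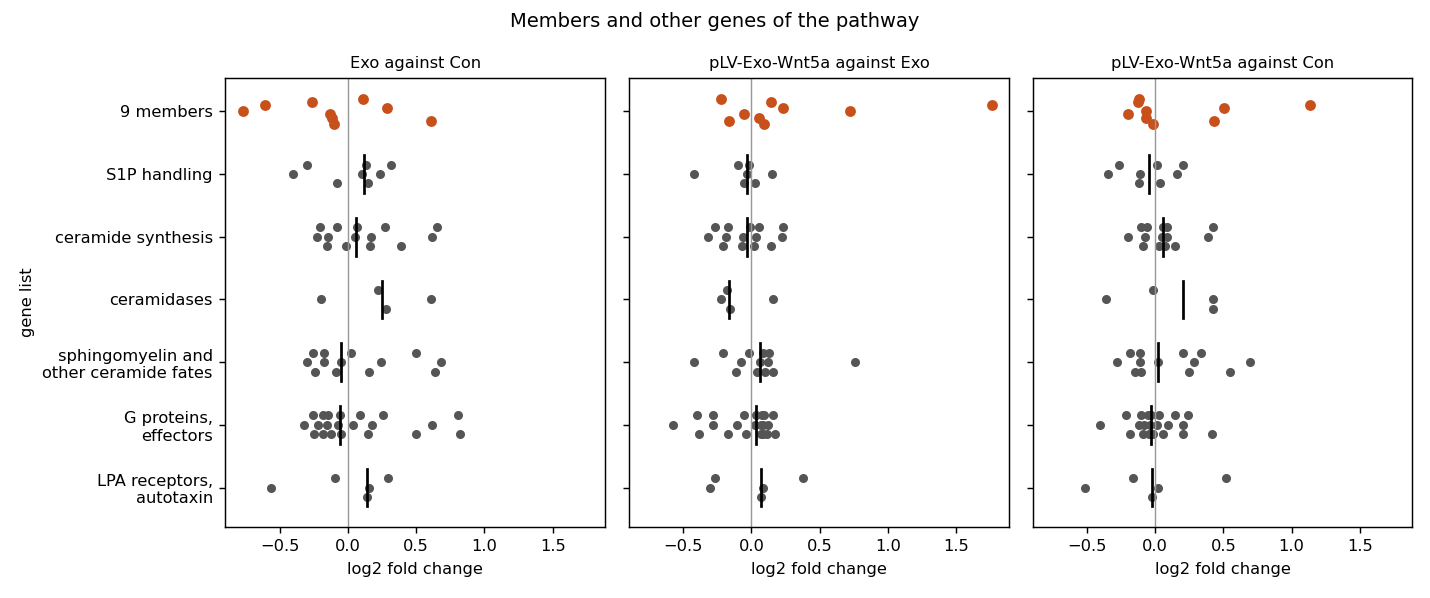
The log2FC (x axis) of the 9 members (orange) and of 6 gene lists around them (grey points for genes, black lines for list medians) in the 3 comparisons. Apart from S1pr3 at 1.76 and 1.14, no gene shown lies beyond 1 in either direction.

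In the list of other genes that handle S1P (receptor, phosphatases, transporters, carrier and aldehyde step), the smallest p was that of Abca1, a cholesterol transporter that can also release S1P, in 2 comparisons. Abca1 had a log2FC of -0.42 (SE 0.14, Q = 0.241) between pLV-Exo-Wnt5a and Exo and 0.32 (SE 0.16, Q = 0.354) between Exo and Con. Between pLV-Exo-Wnt5a and Con it was the lipid phosphate phosphatase gene Plpp1, at 0.20 (SE 0.13, Q = 0.676). Sgpp2, the second S1P phosphatase gene, had at most 11 counts in a library and was not tested. In ceramide synthesis, Sptssa had a log2FC of 0.66 (SE 0.24, Q = 0.28) between Exo and Con and 0.38 (SE 0.21, Q = 0.647) between pLV-Exo-Wnt5a and Con. The ceramide synthase gene Cers4 had 0.23 (SE 0.10, Q = 0.4) between pLV-Exo-Wnt5a and Exo. Among ceramidases, which supply sphingosine, Acer3 had 0.61 (SE 0.26, Q = 0.317) between Exo and Con and 0.42 (SE 0.21, Q = 0.619) between pLV-Exo-Wnt5a and Con. The acid ceramidase gene Asah1 had -0.22 (SE 0.09, Q = 0.357) between pLV-Exo-Wnt5a and Exo. Ugt8a, the galactosylceramide synthase of myelin, had -0.42 (SE 0.15, Q = 0.298) in that comparison.

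Downstream of the receptors, 21 genes of G proteins and effectors were tested, and 0 were DEGs in each comparison by edgeR, with 5, 2 and 1 at an unadjusted p under 0.05 (14.9%, 12% and 8.35% of all genes). DESeq2 called 0 of the 18, 21 and 21 with an adjusted p, and had 5, 3 and 1 of 21 at an unadjusted p under 0.05 (9.81%, 8.21% and 5.59% of all genes). Arhgef1, an exchange factor activated by G12/13, had the smallest p in both comparisons with Con. It was measured at 64.3 ± 0.915 CPM in Con, 51.8 ± 3.46 CPM in Exo and 55.8 ± 0.566 CPM in pLV-Exo-Wnt5a, and no exosome library reached the lowest Con library. Its log2FC was -0.32 (SE 0.08, Q = 0.265) between Exo and Con and -0.21 (SE 0.09, Q = 0.573) between pLV-Exo-Wnt5a and Con, neither of which passes the test. The phospholipase gene Plcb3 had 0.17 (SE 0.06, Q = 0.314) between pLV-Exo-Wnt5a and Exo. The pathway column of the table places 111 further genes in sphingolipid signaling, of which 101 were tested and 0 were DEGs in each comparison by edgeR, with 18, 17 and 7 at an unadjusted p under 0.05, beside the same shares of all genes as above. DESeq2 called 0 of the 89, 101 and 101 with an adjusted p, and had 17 of 109, 19 of 110 and 8 of 111 at an unadjusted p under 0.05. With no limit on the fold change, edgeR gave 0, 1 and 0 of them a Q under 0.05, where 0.00664%, 0.436% and 0.0862% of all genes had one. The 1 was the protein kinase C gene Prkcb between pLV-Exo-Wnt5a and Exo, named here after its value was seen. Prkcb was measured at 128 ± 3.49 CPM in Exo and 95.2 ± 6.72 CPM in pLV-Exo-Wnt5a, a log2FC of -0.41 (SE 0.07, Q = 0.0258).

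The genes most like S1pr3 over the 9 libraries, by the Pearson r of log2 CPM among 15458 genes, were Ifitm3 (r = 0.987), H2-D1 (0.986), Nek6 (0.983), Tnn (0.978) and C4b (0.977). Ifitm3 is an interferon-inducible membrane protein, H2-D1 a class I histocompatibility gene, Nek6 a mitotic kinase, Tnn the matrix glycoprotein tenascin-W and C4b a complement component. Ifitm3 was measured at 18.0 ± 1.87 CPM in Con, 13.2 ± 1.01 CPM in Exo and 27.2 ± 3.21 CPM in pLV-Exo-Wnt5a. C4b was measured at 36.2 ± 6.02, 26.7 ± 0.449 and 81.2 ± 2.43 CPM in the same order. All 5 share the order of the groups seen in S1pr3, which is what the measure selects. H2-D1, C4b and Ifitm3 have close relatives in their families, and reads may be split between them. By Spearman's rank correlation the 5 nearest genes shared 1 with this list, and 11.3% of all genes have 5 neighbours at least as close, so the closeness is common among these libraries.

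**Figure D5:**
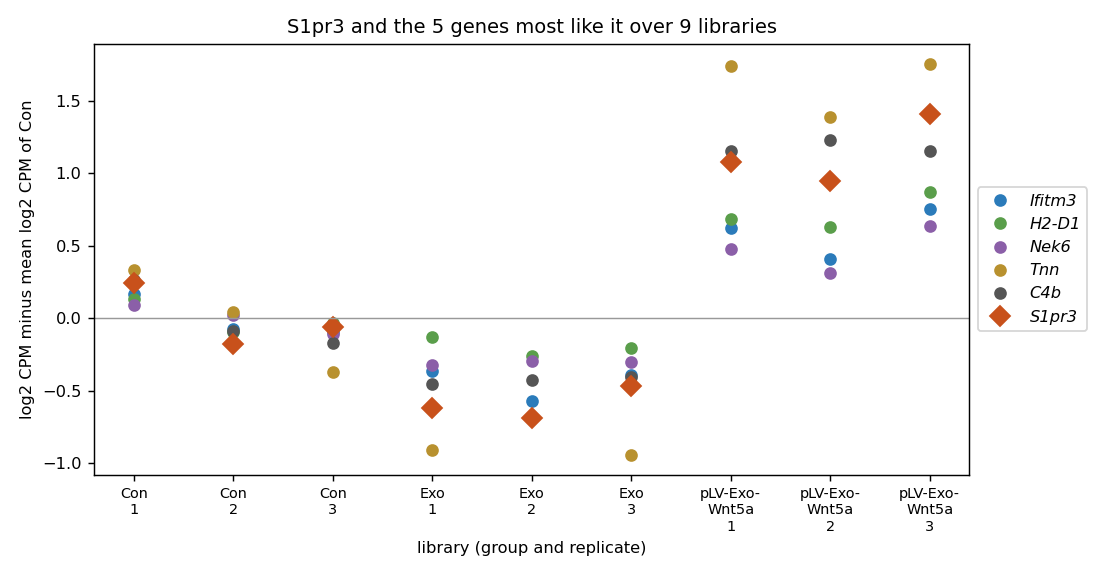
Level of S1pr3 (orange diamonds) and of the 5 genes with the highest Pearson r to it (circles) in each library, as log2 CPM minus the mean log2 CPM of the Con libraries. In every gene the Exo libraries lie below 0 and the pLV-Exo-Wnt5a libraries above it.

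S1pr3 is commonly listed among genes of reactive astrocytes, and 12 other genes of that list were set beside it. Between pLV-Exo-Wnt5a and Exo, 11 were tested and all 11 had a log2FC above 0, where 7776 of 15132 genes did. Their median was 0.91, beside 0.00 over all genes. By edgeR 8 had an unadjusted p under 0.05 (12% of all genes) and 3 a Q under 0.05 (0.436%). Of these, 1 was a DEG (Serpina3n), where 0.139% of all genes were DEGs that rose. DESeq2 called more genes in all in this comparison, with 71 DEGs, 51 of them higher, among 15092 genes with an adjusted p. Of the 10 panel genes with one it called 4 (Serpina3n, Lcn2, Timp1 and Cxcl10). Lcn2 had few counts (0 to 54), with means of 0.0345, 0.0431 and 0.927 CPM in Con, Exo and pLV-Exo-Wnt5a. It could pass the filter only through the pLV-Exo-Wnt5a libraries, so its direction carries no weight. In the same order Timp1 (21 to 98 counts) was at 1.10, 0.684 and 1.97 CPM. Cxcl10 (18 to 95 counts) was at 0.828, 0.688 and 1.76 CPM. Between pLV-Exo-Wnt5a and Con, 10 of 10 were above 0 with a median of 1.01, where 7663 of 15089 genes were above 0. There 1 was a DEG by edgeR (Serpina3n), against 0.0663% of all genes, and 8 had an unadjusted p under 0.05 (8.35%). Between Exo and Con 4 were above 0 and 5 below, with a median of -0.19. By edgeR 0 were DEGs there and 1 had an unadjusted p under 0.05 (14.9% of all genes). Serpina3n was measured at 46.8 ± 16.1 CPM in Con, 35.9 ± 0.944 CPM in Exo and 241 ± 21.8 CPM in pLV-Exo-Wnt5a. Serpina3n belongs to a cluster of near-identical genes between which reads may be split. Between Exo and Con the smallest p was that of Vim, the intermediate filament vimentin, with a log2FC of -0.37 (SE 0.11, Q = 0.265). The list was chosen with earlier results of these libraries known.

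Markers of cell types that could carry S1P receptors were set beside S1pr3, and some followed its order of groups while others did not. The sum of 8 astrocyte markers, all detected, was 4987 to 6025 CPM in Con, 4877 to 5005 CPM in Exo and 6576 to 6908 CPM in pLV-Exo-Wnt5a. Most of that difference was Gfap, at 2539 ± 446, 2234 ± 38.0 and 4026 ± 55.7 CPM, and between pLV-Exo-Wnt5a and Exo 5 of the 8 markers had a log2FC below 0. The sum of 7 neuronal markers was 2764 to 2831, 2760 to 3222 and 2554 to 3286 CPM in the same order, and that of 9 oligodendrocyte lineage markers 2169 to 2391, 2006 to 2212 and 1944 to 2159 CPM, neither of which followed S1pr3. The sum of 9 microglia and macrophage markers was 56.8 to 60.2, 50.3 to 56.8 and 53.4 to 57.3 CPM, with 4 of 9 above a mean of 1 CPM. Its member Csf1r followed the order of S1pr3, at 2.04 ± 0.760, 0.677 ± 0.325 and 2.48 ± 0.467 CPM, and was named after its values were seen. The sum of 8 fibroblast and mural markers was 24.1 to 32.2, 21.2 to 24.4 and 23.5 to 23.9 CPM. Of 7 endothelial markers 6 were in the table, with sums of 6.21 to 8.27, 5.62 to 9.999 and 6.13 to 8.77 CPM, and Cdh5 had at most 3 counts in a library. The part of these cells in the S1pr3 values was not tested. In bulk libraries, more cells of a type and more RNA per cell cannot be told apart.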

How the data were processed

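Raw counts, as whole numbers for each gene of the 9 libraries, were deposited. The study's methods name HISAT2 for alignment and DESeq2, whereas the submitters' processing notes list Bowtie2, RSEM 1.3.1 and DESeq2 1.4.5. If RSEM made the table, its counts are rounded estimates. The genome build is not given in the sources used here, and the table pairs genes with mouse symbols and gene numbers although the cells are labelled as rat. Every count column belonged to a labelled sample.

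Genes passing filterByExpr in the 6 libraries compared were scaled by TMM and tested in R 4.3.3 with edgeR 4.0.16 (quasi-likelihood), with Benjamini-Hochberg adjustment (Q) over all genes kept. The SE was taken from the test statistic. DESeq2 1.42.0 was an alternative. The others were RLE normalization, no filter, at least 10 counts in each library, a fit of all 9 libraries, looser thresholds, the replicate number as a block, and leaving out each library. Correlations were of log2 CPM (prior count 2). Promoters came from RefSeq (GRCr8), with 8 of 9 members matched. The steps were tested on simulated data.

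The members and lists were chosen with earlier results of these data known. All members are named, and of each pathway list the DEGs and the gene with the smallest p per comparison. The genes most like S1pr3 are the 5 with the highest Pearson r. At 32765138 to 40427647 counts per library, 3 counts were 0.0742 to 0.0916 CPM. Some results for single genes are left out.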

Additional observations from a re-analysis of the deposited data

How the results depend on the processing

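Under RLE normalization, DESeq2, no filter on low counts, at least 10 counts in each library, a fit of all 9 libraries, the replicate block, and leaving out each library, 313 of 324 log2FC values of the members kept their direction and their side of the threshold. S1pr3 lay between 1.74 and 1.76 against Exo and between 1.13 and 1.146 against Con under the 6 alternatives that use all libraries. With each library left out, the members that were DEGs between pLV-Exo-Wnt5a and Con numbered 0 to 1 (0 without Con replicate 2 or any pLV-Exo-Wnt5a library), which concerns S1pr3 alone and is given as a description. At an unadjusted p under 0.05 with a log2FC above 0.58 in size, 2 of 9 members (Sgpp1 and, as a description, S1pr3) passed between Exo and Con. So did 4 of the 39 sphingolipid list genes tested (Sptssa, Acer3, Ugcg and Ugt8a), where 4.47% of all genes passed. Between pLV-Exo-Wnt5a and Exo 1 of the 38 list genes tested (Sgms2) passed, where 3.49% of all genes did. All of these genes were named after their values were seen. Without a filter Sgpp1 had Q = 0.0376 between Exo and Con, with a range from 0.0376 to 0.524 over the 6 alternatives that use all libraries. With each library left out its Q from edgeR ranged from 0.108 to 0.618. Values that turned when a library was left out were those of S1pr2 (range -0.035 to 0.23) and Sgpp1 (-0.50 to 0.11) between pLV-Exo-Wnt5a and Exo, and of Sphk1 (-0.30 to 0.36) and Spns2 (-0.064 to 0.070) between pLV-Exo-Wnt5a and Con, none of which had passed the test. The causes were not tested.

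The replicate block left 0, 1 and 1 members as DEGs between Exo and Con, pLV-Exo-Wnt5a and Exo, and pLV-Exo-Wnt5a and Con. Deviations of same-numbered libraries had correlations between -0.201 and 0.0634, so the numbers were not taken to pair the samples. Over all genes the DEGs in the same order numbered 1, 24 and 10 by edgeR, 29, 71 and 27 by DESeq2, 50, 69 and 33 without a filter, and 0, 28 and 20 with the block, and ranged from 0 to 138, 11 to 27 and 1 to 12 with a library left out (138 without Con replicate 3). Among the members the fewest counts were those of S1pr5 (17 to 54) and Sphk1 (26 to 95), and the part of depth in their wide intervals was not tested.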

Other observations

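Lysophosphatidic acid (LPA) is a sister lipid of S1P with receptors of the same class, and its receptor genes were measured in the same libraries. Of 7 genes, 5 passed the filter in each comparison. Between Exo and Con, pLV-Exo-Wnt5a and Exo, and pLV-Exo-Wnt5a and Con, 0 of the 5 were DEGs by edgeR, with 0, 0 and 0 at an unadjusted p under 0.05, where 14.9%, 12% and 8.35% of all genes were. DESeq2 called 0 of the 3, 5 and 5 genes to which it gave an adjusted p, and had 0, 2 (Enpp2 and Lpar4) and 0 of 7 at an unadjusted p under 0.05, where 9.81%, 8.21% and 5.59% of all genes were. Their median log2FC was 0.14, 0.07 and -0.02. Enpp2, the gene of autotaxin, which makes LPA, was measured at 54.2 ± 7.83 CPM in Con, 60.8 ± 8.44 CPM in Exo and 48.7 ± 10.1 CPM in pLV-Exo-Wnt5a (SD, n = 3). Its log2FC between pLV-Exo-Wnt5a and Exo was -0.31 (SE 0.14, Q = 0.42 from edgeR). Lpar5 was measured at 0.947 ± 0.234, 0.642 ± 0.186 and 0.662 ± 0.269 CPM in the 3 groups, with a log2FC of -0.56 (SE 0.39, Q = 0.48) between Exo and Con and -0.51 (SE 0.43, Q = 0.752) between pLV-Exo-Wnt5a and Con. Lpar3 and Lpar4 had at most 12 and 9 counts in a library.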
